A study of Homo sapiens with 16 samples.

Results

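Cells recognize misplaced or foreign nucleic acid with a small set of receptors, and 9 genes of that system are described here across states of a human mammary cell line: IFIH1, DDX58 (current symbol RIGI), TLR3, ZBP1, CGAS, ADAR, MAVS, IRF3 and IFNB1. They were chosen by name, by matching the Ensembl identifier of each count to the current or older symbol, and all 9 were found among 60448 genes. Of the 9, 7 passed the filter on low counts, along with 18285 genes in all. The other two, ZBP1 and IFNB1, had 3 counts each over the 16 libraries and are given as raw counts.

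The RNA came from HMLER cells, human mammary epithelial cells made immortal and transformed by introduced genes that include an oncogenic HRAS. Total RNA was extracted, and the 16 libraries form 8 groups of 2. The unedited groups, with the genotype label wild type, are C1, epithelial and stable, C2-Epi, epithelial and plastic, and C2-Mes, mesenchymal. The other 5 groups derive from C1: sgControl carries a control guide RNA and is also labelled wild type, sgEED-Epi and sgEED-Mes are EED knockouts in a plastic epithelial and a mesenchymal state, and sgKMT2D-Epi and sgKMT2D-Mes are KMT2D knockouts in the same pair of states. EED belongs to the core of PRC2, a complex that methylates histone H3 and represses genes. KMT2D methylates histone H3 at enhancers and is linked to activation. All groups grew in the same mixed medium with insulin, EGF and hydrocortisone. The labels name no added nucleic acid, virus or interferon in any group. Whether the pair of libraries in a group came from separate cultures is not labelled, and the p-values therefore cover just the spread among libraries, which may be technical. The labels also do not say whether a group is 1 clone, or which RNA came from sorted cells.

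As background, IFIH1 (the protein MDA5) and DDX58 (RIG-I) are helicases that bind double-stranded RNA in the cytosol and signal through MAVS, an adaptor on the mitochondrial surface. TLR3 binds double-stranded RNA in endosomes, CGAS binds DNA and makes the messenger cGAMP for the receptor STING1, and ZBP1 binds left-handed nucleic acid and can trigger cell death. ADAR changes adenosine to inosine in double-stranded RNA and so keeps the cell's own RNA from being sensed. These routes meet at the transcription factor IRF3, whose best known target is IFNB1, the gene of interferon beta, and interferon in turn induces several of the sensors.

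All 9 genes are protein coding. In GRCh38 coordinates, IFIH1 (ENSG00000115267) lies at chr2:162267079-162318703 on the minus strand, DDX58 (ENSG00000107201) at chr9:32455705-32526324 (minus), TLR3 (ENSG00000164342) at chr4:186069152-186088069 (plus) and CGAS (ENSG00000164430) at chr6:73413515-73452276 (minus). ZBP1 (ENSG00000124256) lies at chr20:57603846-57620576 (minus), ADAR (ENSG00000160710) at chr1:154582057-154628013 (minus), MAVS (ENSG00000088888) at chr20:3846799-3876123 (plus), IRF3 (ENSG00000126456) at chr19:49659569-49665875 (minus) and IFNB1 (ENSG00000171855) at chr9:21077105-21077963 (minus). CGAS overlaps DDX43 on the opposite strand, which had 0 counts in all 16 libraries. IRF3 overlaps BCL2L12 on the opposite strand, which lay between 6.19 and 23.6 CPM. Whether reads were assigned by strand is not given, so reads of IRF3 and BCL2L12 may be mixed.

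The promoters of 4 members are printed to set the 3 sensors of double-stranded RNA, whose levels the results turn on, beside the interferon gene that they lead to. RefSeq promoter windows (build GRCh38.p14) were matched for 6 of the 9 members. ZBP1, CGAS and IRF3 had no entry. Each sequence below runs 5′ to 3′ on the gene's own strand, from 250 bases before the RefSeq transcription start to 20 bases after it. Capitals mark matches, on either strand, to GAAANNGAAA (the core of the interferon-stimulated response element) and GGGANNTTCC (a core that NF-kB binds). IFIH1 is at chr2:162318665-162318934 (minus), DDX58 at chr9:32526177-32526446 (minus), TLR3 at chr4:186068906-186069175 (plus) and IFNB1 at chr9:21077923-21078192 (minus).
IFIH1: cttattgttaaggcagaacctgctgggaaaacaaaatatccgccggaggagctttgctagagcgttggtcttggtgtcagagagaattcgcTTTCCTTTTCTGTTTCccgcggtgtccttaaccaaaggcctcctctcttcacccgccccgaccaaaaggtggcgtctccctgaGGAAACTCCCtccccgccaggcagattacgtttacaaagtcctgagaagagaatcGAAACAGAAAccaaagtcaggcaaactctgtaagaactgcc
DDX58: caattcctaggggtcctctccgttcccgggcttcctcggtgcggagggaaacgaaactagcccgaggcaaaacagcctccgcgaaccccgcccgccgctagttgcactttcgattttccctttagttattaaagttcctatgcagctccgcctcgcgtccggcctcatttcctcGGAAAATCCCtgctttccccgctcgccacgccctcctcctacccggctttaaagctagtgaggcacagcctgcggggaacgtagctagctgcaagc
TLR3: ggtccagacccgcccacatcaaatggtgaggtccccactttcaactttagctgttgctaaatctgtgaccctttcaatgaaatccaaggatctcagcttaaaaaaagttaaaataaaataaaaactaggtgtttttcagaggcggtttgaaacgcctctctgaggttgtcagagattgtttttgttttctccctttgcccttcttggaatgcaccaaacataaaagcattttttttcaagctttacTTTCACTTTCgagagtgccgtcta
IFNB1: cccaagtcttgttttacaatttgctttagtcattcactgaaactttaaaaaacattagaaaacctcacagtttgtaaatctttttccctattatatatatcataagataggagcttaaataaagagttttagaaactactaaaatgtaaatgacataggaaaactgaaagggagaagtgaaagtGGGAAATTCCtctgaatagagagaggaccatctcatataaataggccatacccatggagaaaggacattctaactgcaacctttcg

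The IFIH1 window held 3 matches to GAAANNGAAA. On the minus strand 2 overlapping matches begin 159 and 153 bases before the start and read as a single run of capitals, and the other begins 21 bases before it on the plus strand. The TLR3 window held 1, on the minus strand, starting 4 bases before the start. DDX58 and IFNB1 held none, although both held the shorter core AANNGAAA of the interferon regulatory factors, DDX58 in 3 places and IFNB1 in 2. GGGANNTTCC matched once in IFIH1 and once in DDX58, 76 bases before the start on the minus strand in both, and once in IFNB1, 66 bases before the start on the plus strand. The windows of ADAR and MAVS held none of the 3 motifs. Over windows of 300 bases, 50 of them after the start, GAAANNGAAA occurred in 3.57% of 35116 RefSeq promoters, AANNGAAA in 22.8% and GGGANNTTCC in 1.61%. A match describes the letters in a window and is not a measured binding site.

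**Figure D1:**
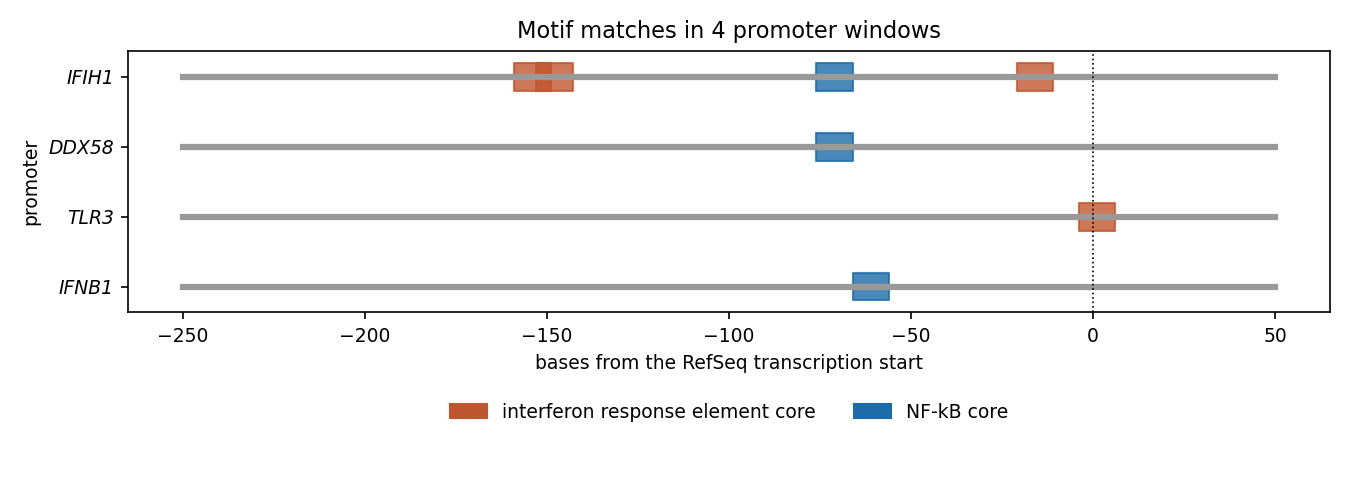
Positions of motif matches in the promoter windows of IFIH1, DDX58, TLR3 and IFNB1, with the distance from the RefSeq transcription start in bases on the horizontal axis and 1 line per gene. Matches to GAAANNGAAA and GGGANNTTCC are drawn, and those to the shorter core are not. IFIH1 holds 3 matches to GAAANNGAAA and 1 to GGGANNTTCC, and TLR3 holds 1 to GAAANNGAAA. DDX58 and IFNB1 each hold 1 to GGGANNTTCC.

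Library totals ran from 18872124 to 31950649 counts, both in C2-Mes. The 2 libraries of a group correlated at r of 0.988 to 0.994 over genes, except those of C2-Mes (r = 0.967), whose replicates differ in several members and are given one by one below. Summed epithelial markers ran from 71.2 to 12280 CPM over the libraries and summed mesenchymal markers from 13226 to 156562, with the mesenchymal groups lowest and highest. The mesenchymal groups were not alike in the epithelial sum. It was 1291 to 1533 CPM in sgEED-Mes, 140 to 154 in C2-Mes and 71.2 to 78.8 in sgKMT2D-Mes. The part of this difference in the results was not tested. Of the mesenchymal list FN1 alone ran from 12346 to 141637 CPM. EED lay between 5.22 and 29.6 CPM in the 4 EED knockout libraries and between 11.2 and 38.3 in the other 12. KMT2D lay between 76.8 and 127 in its 4 knockout libraries and between 70.9 and 125 in the other 12, so RNA levels do not separate either knockout from its controls. Plasmacytoid dendritic cell markers, from the cells that make most interferon in blood, summed to at most 0.117 CPM over 5 genes. Of 14 leukocyte markers MS4A1, NKG7 and TYROBP were at 0 everywhere. The list summed to 6.52 to 75.5 CPM, and without CSF1R, LAPTM5 and CORO1A, a split chosen after their values were seen, to 0.279 to 1.97. Summed endothelial markers (7 genes) were higher in the mesenchymal libraries of each line, at 19.7 to 32.5 CPM in C2-Mes against 3.88 to 4.62 in C2-Epi, 15.6 to 18.1 in sgEED-Mes against 7.16 to 8.49 in sgEED-Epi and 4.29 to 4.64 in sgKMT2D-Mes against 1.42 to 1.75 in sgKMT2D-Epi. Of that list PECAM1, ERG and VWF reached the highest levels, while CDH5 and CLDN5 were at 0 in 14 of 16 libraries. The part of the endothelial list in the results was not tested. In bulk RNA a lower level can mean fewer expressing cells or less RNA per cell, which cannot be told apart here.

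Levels differed far more among members than any member differed among groups. They are given as CPM, counts scaled by TMM to library totals of equal size. Per kb of exon, the median of the 8 group levels was 30.3 CPM per kb for the RNA editor ADAR, 17.0 for the adaptor MAVS and 12.2 for IRF3. The sensors lay lower, at 3.45 for DDX58, 2.95 for CGAS, 1.82 for IFIH1 and 0.883 for TLR3. The members with lower levels varied more, although the 2 orders do not mirror each other. The highest group level was 12.4 times the lowest for TLR3, 9.01 times for DDX58, 3.40 times for CGAS and 3.25 times for IFIH1, against 1.64 times for MAVS, 1.54 times for IRF3 and 1.47 times for ADAR. The 4 sensors thus varied more among groups than the editor, the adaptor and the transcription factor.

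**Figure D2:**
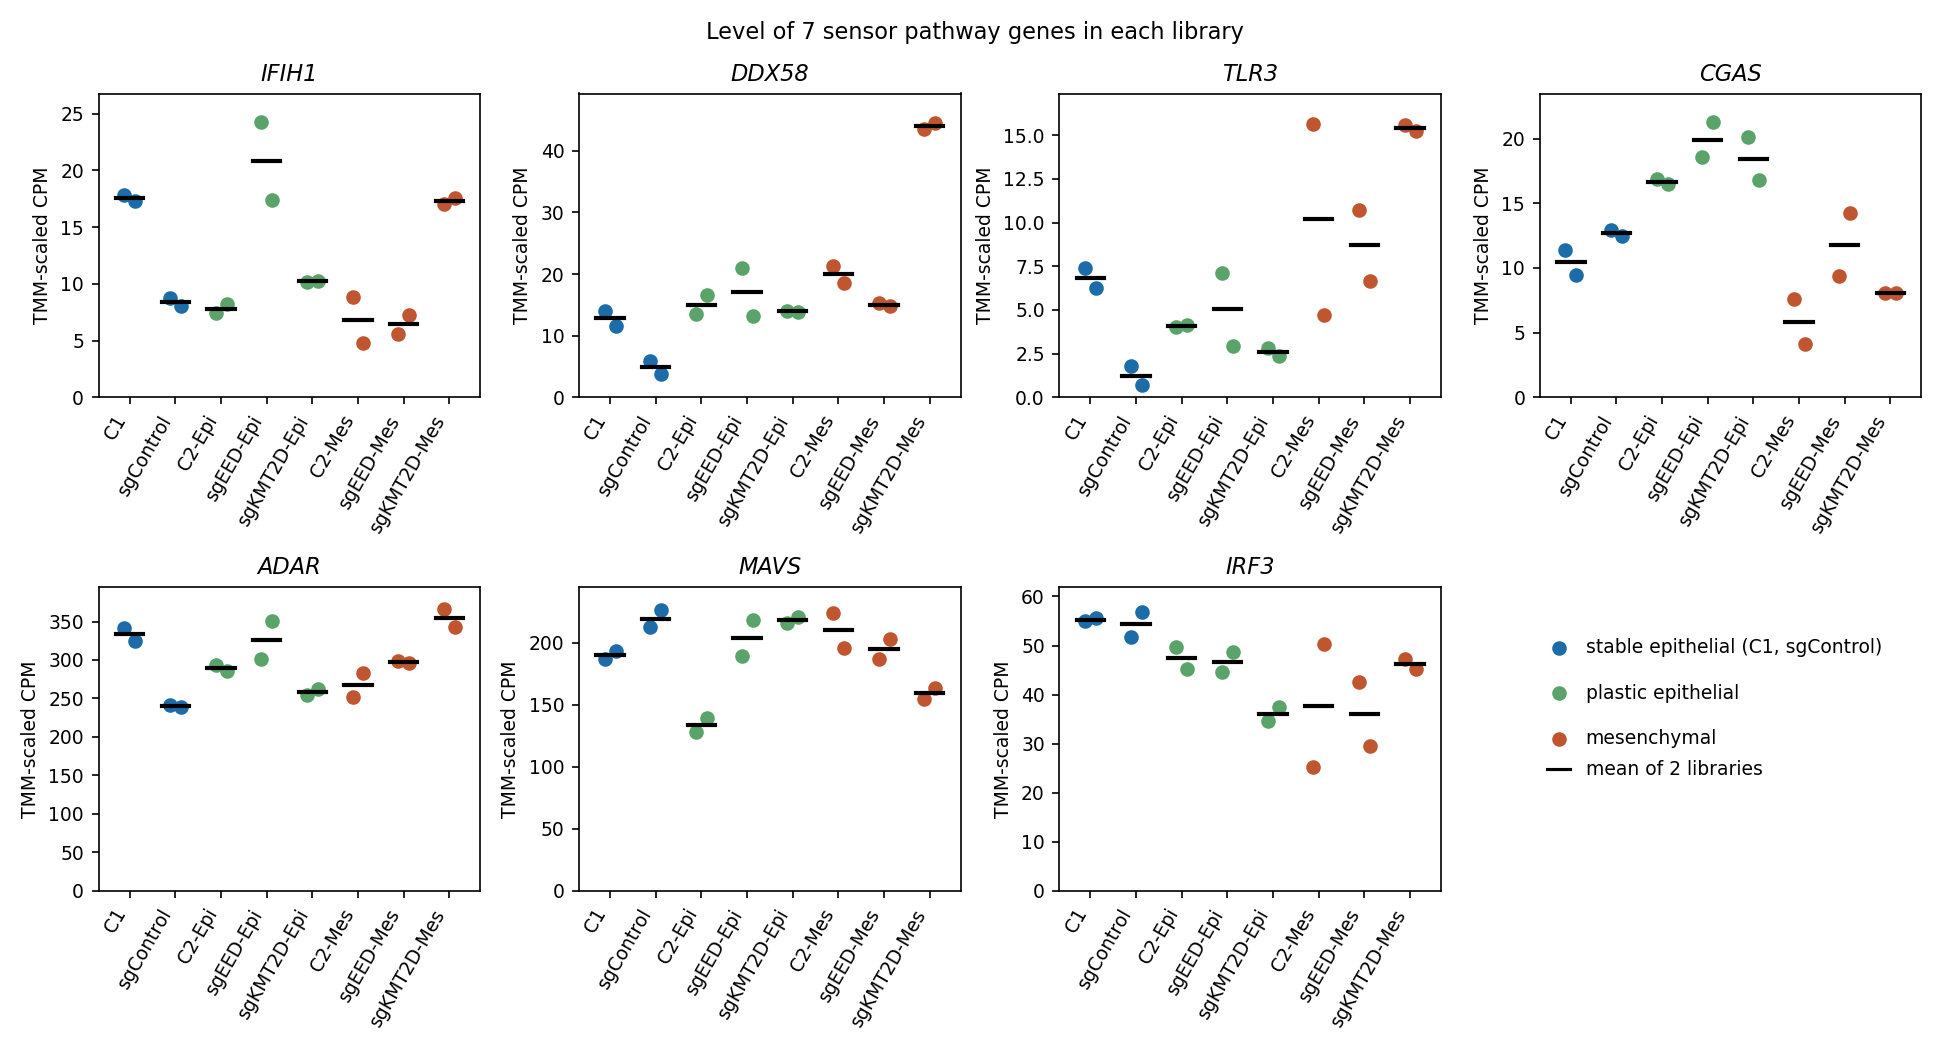
CPM of 7 members in each of the 16 libraries, 1 panel per gene, with the 8 groups on the horizontal axis, points for libraries, bars for the mean of 2, and colours for stable epithelial, plastic epithelial and mesenchymal states. DDX58 and TLR3 are highest in sgKMT2D-Mes (DDX58 43.5 and 44.5 CPM) and lowest in sgControl, and CGAS is higher in the plastic epithelial groups than in the mesenchymal ones.

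The central comparison of the series is each mesenchymal state with its plastic epithelial counterpart, made in C2, sgEED and sgKMT2D cells. The 3 pairs use separate libraries. In sgKMT2D cells the 3 RNA sensors and ADAR rose while CGAS and MAVS fell. In sgEED cells IFIH1 and CGAS fell, and in C2 cells CGAS fell and MAVS rose. CGAS was the only member called in the same direction in all 3. Adjusted p-values come from edgeR (quasi-likelihood test, Benjamini-Hochberg method, 18285 genes), a gene is called under 0.05, and "rose" and "fell" name called genes only.

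Counted over the 7 tested members, sgKMT2D-Mes against sgKMT2D-Epi gave 4 higher and 2 lower, where 50.8% of all genes were called. C2-Mes against C2-Epi gave 1 higher and 1 lower, where 39.6% of all genes were called. sgEED-Mes against sgEED-Epi gave 0 higher and 2 lower, where 36.5% were called. The median log2 change of the 7 members was 0.45 in sgKMT2D, -0.12 in C2 and -0.18 in sgEED, beside 0.02, 0.01 and 0.01 over all genes. With so few members, the counts in C2 and sgEED are near what the share of called genes over the whole table gives.

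IFIH1, the sensor of long double-stranded RNA, moved in opposite directions in the edited lines. Its level was 24.3 and 17.4 CPM in the sgEED-Epi libraries and 5.59 and 7.26 in sgEED-Mes. The groups do not overlap, and IFIH1 fell by 1.70 on the log2 scale (SE 0.246, adjusted p = 9.3e-05), a 3.25-fold lower level. In sgKMT2D it was 10.2 and 10.3 CPM in the epithelial libraries and 17.0 and 17.5 in the mesenchymal ones, and rose by 0.75 (SE 0.24, adjusted p = 0.017). That call was lost when any 1 of the 4 libraries was left out, with log2 changes of 0.66 to 0.70 and adjusted p of 0.10 to 0.13. In C2 it was 7.44 and 8.19 CPM against 8.82 and 4.82, with overlapping groups and a log2 change of -0.22 (SE 0.249, adjusted p = 0.53). Without C2-Mes replicate 1 the C2 change was -0.80, and over the 10 alternatives it ran from -0.80 to 0.13.

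The difference between these changes was itself tested, as the interaction of state and line. For IFIH1 the sgKMT2D change exceeded the sgEED change by 2.46 on the log2 scale (SE 0.343, adjusted p = 0.0002), where 20.1% of all genes were called. The C2 change exceeded the sgEED change by 1.48 (SE 0.349, adjusted p = 0.0073), where 21.1% were called. The difference between C2 and sgEED was lost in a fit of only the compared libraries (1.49, adjusted p = 0.069) and without sgEED-Epi replicate 1 (1.17, adjusted p = 0.053). Between sgKMT2D and C2 the difference was 0.97 and did not pass (adjusted p = 0.056), in a contrast where 24.1% of genes were called. It passed without C2-Mes replicate 1 (1.49, adjusted p = 0.001), with no filter (0.98, adjusted p = 0.025), with the GC content and length correction (1.07, adjusted p = 0.0094) and in DESeq2 (0.95, adjusted p = 0.049). So the fall of IFIH1 in sgEED differed from the change in sgKMT2D under every alternative tried.

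DDX58, the sensor of short double-stranded RNA with 5′ triphosphate ends, was raised in the sgKMT2D line. It read 14.0 and 13.9 CPM in sgKMT2D-Epi and 43.5 and 44.5 in sgKMT2D-Mes, and rose 3.16-fold (log2 change 1.66, SE 0.231, adjusted p = 4.2e-05). In C2 the libraries read 13.4 and 16.6 CPM in the epithelial state and 21.3 and 18.6 in the mesenchymal. All mesenchymal values lie above the epithelial ones, yet the log2 change of 0.41 did not pass (SE 0.228, adjusted p = 0.18), except after correction of GC content and length (0.45, adjusted p = 0.042). In sgEED the libraries read 20.98 and 13.2 CPM against 15.3 and 14.7, which overlap (log2 change -0.18, adjusted p = 0.59). The change in sgKMT2D exceeded that in sgEED by 1.84 (SE 0.323, adjusted p = 0.0012) and that in C2 by 1.25 (SE 0.322, adjusted p = 0.011). The second of these was lost without C2-Epi replicate 2 (1.09, adjusted p = 0.066).

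TLR3, the endosomal sensor, had the largest change of any member in sgKMT2D. Its level was 2.80 and 2.35 CPM in sgKMT2D-Epi and 15.6 and 15.3 in sgKMT2D-Mes, and it rose 5.98-fold (log2 change 2.58, SE 0.532, adjusted p = 0.0012). The mesenchymal replicates of the other two lines disagreed. C2-Epi read 4.05 and 4.15 CPM and C2-Mes 15.7 and 4.73, and the log2 change of 1.28 did not pass (SE 0.513, adjusted p = 0.062). It passed with no filter on low counts (1.20, adjusted p = 2.8e-05) and with a replicate block (1.14, adjusted p = 0.032). The GC content and length correction (1.18, adjusted p = 0.022) and DESeq2 (1.31, adjusted p = 0.039) called it too. Without C2-Mes replicate 2 the change was 1.89, and over the 10 alternatives it ran from 0.097 to 1.89. In sgEED the values were 7.12 and 2.95 CPM against 10.7 and 6.65, which overlap (log2 change 0.80, adjusted p = 0.25), and only the fit with no filter called it (0.73, adjusted p = 0.022). The TLR3 change in sgKMT2D exceeded that in sgEED by 1.78 (adjusted p = 0.10) and that in C2 by 1.29 (adjusted p = 0.23), and neither difference passed. The first passed with no filter (1.77, adjusted p = 3e-05), a replicate block (1.78, adjusted p = 0.036), the GC content and length correction (2.01, adjusted p = 0.016), only the libraries compared (1.80, adjusted p = 0.049) and the fit without C2-Mes (1.75, adjusted p = 0.037). The second passed with no filter (1.29, adjusted p = 0.0046), with that correction (1.62, adjusted p = 0.038) and without C2-Mes replicate 1 (2.41, adjusted p = 0.019).

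CGAS, the DNA sensor, was lower in the mesenchymal state of every line. It read 16.9 and 16.5 CPM in C2-Epi and 7.60 and 4.12 in C2-Mes, and fell 2.90-fold (log2 change -1.54, SE 0.259, adjusted p = 0.00028). In sgKMT2D it read 20.1 and 16.8 against 8.07 and 8.10, and fell 2.28-fold (log2 change -1.19, SE 0.252, adjusted p = 0.0013). Both calls were kept under all alternatives. In sgEED it read 18.5 and 21.3 against 9.40 and 14.2, and fell by 0.76 (SE 0.246, adjusted p = 0.027). That call was lost without sgEED-Epi replicate 1 (-0.87, adjusted p = 0.053), sgEED-Epi replicate 2 (-0.72, adjusted p = 0.11) or sgEED-Mes replicate 1 (-0.53, adjusted p = 0.20). None of the 3 interactions of CGAS passed (adjusted p = 0.15, 0.43 and 0.54). Without C2-Mes replicate 1, the C2 change minus the sgEED change was -1.32, against -0.78 with it. The sgKMT2D change minus the C2 change was then 0.86, against 0.35 with it. Over the alternatives these 2 differences ran from -1.32 to -0.38 and from -0.088 to 0.86.

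ADAR and MAVS moved by small amounts on high levels. ADAR, the editor, read 255 and 262 CPM in sgKMT2D-Epi and 366 and 343 in sgKMT2D-Mes, and rose 1.37-fold (log2 change 0.45, SE 0.12, adjusted p = 0.0061). That call was lost with no filter (0.37, adjusted p = 0.099) and without sgKMT2D-Epi replicate 1 (0.37, adjusted p = 0.067) or sgKMT2D-Mes replicate 1 (0.33, adjusted p = 0.085). Its log2 changes in C2 (-0.12, adjusted p = 0.49) and sgEED (-0.13, adjusted p = 0.44) did not pass. The sgKMT2D change exceeded both, by 0.57 over C2 and 0.59 over sgEED (adjusted p = 0.026 for each), and both differences were lost with no filter (adjusted p = 0.10 and 0.13). The difference from C2 was also lost without C2-Epi replicate 1 or 2, sgKMT2D-Epi replicate 1 or sgKMT2D-Mes replicate 1 (adjusted p = 0.05 to 0.073). That from sgEED was also lost without replicate 2 of sgEED-Epi or sgEED-Mes, either replicate of sgKMT2D-Epi or replicate 1 of sgKMT2D-Mes (adjusted p = 0.05 to 0.10).

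MAVS, the shared adaptor of IFIH1 and DDX58, moved in opposite directions in C2 and sgKMT2D. It read 128 and 140 CPM in C2-Epi and 225 and 196 in C2-Mes, and rose 1.57-fold (log2 change 0.65, SE 0.127, adjusted p = 0.00098), a call lost in a fit of only those 4 libraries (0.65, adjusted p = 0.062). It read 216 and 221 in sgKMT2D-Epi and 155 and 164 in sgKMT2D-Mes, and fell by 0.45 (SE 0.127, adjusted p = 0.0085). So in sgKMT2D IFIH1 and DDX58 rose while their adaptor fell, although the IFIH1 call was lost without any 1 of the 4 libraries. The sgKMT2D change was below the C2 change by 1.10 on the log2 scale (difference -1.10, SE 0.18, adjusted p = 0.00053), under all alternatives tried. In sgEED MAVS read 190 and 219 against 187 and 203, which overlap (log2 change -0.06, adjusted p = 0.74). The C2 change exceeded that by 0.71 (SE 0.179, adjusted p = 0.011), which was lost with no filter (adjusted p = 0.054), in a fit of only the compared libraries (0.11), without C2-Epi replicate 1 (0.61, adjusted p = 0.079) and without sgEED-Epi replicate 2 (0.60, adjusted p = 0.063).

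IRF3, the transcription factor at the end of these routes, passed in none of the 3 pairs. Its log2 changes were -0.32 in C2 (SE 0.246, adjusted p = 0.33), -0.37 in sgEED (SE 0.246, adjusted p = 0.27) and 0.36 in sgKMT2D (SE 0.247, adjusted p = 0.24). The C2-Mes replicates stood at 25.2 and 50.3 CPM, around the C2-Epi values of 49.7 and 45.3. Without C2-Mes replicate 2 the C2 change was -0.95, and over the 10 alternatives it ran from -0.95 to -0.026. In a fit of only the 4 sgKMT2D libraries IRF3 was higher in the mesenchymal state (0.34, adjusted p = 0.002). In a fit without C2-Mes IRF3 was lower in sgEED-Mes (-0.40, adjusted p = 0.035). IRF3 is activated by phosphorylation, which RNA levels do not measure.

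**Figure D3:**
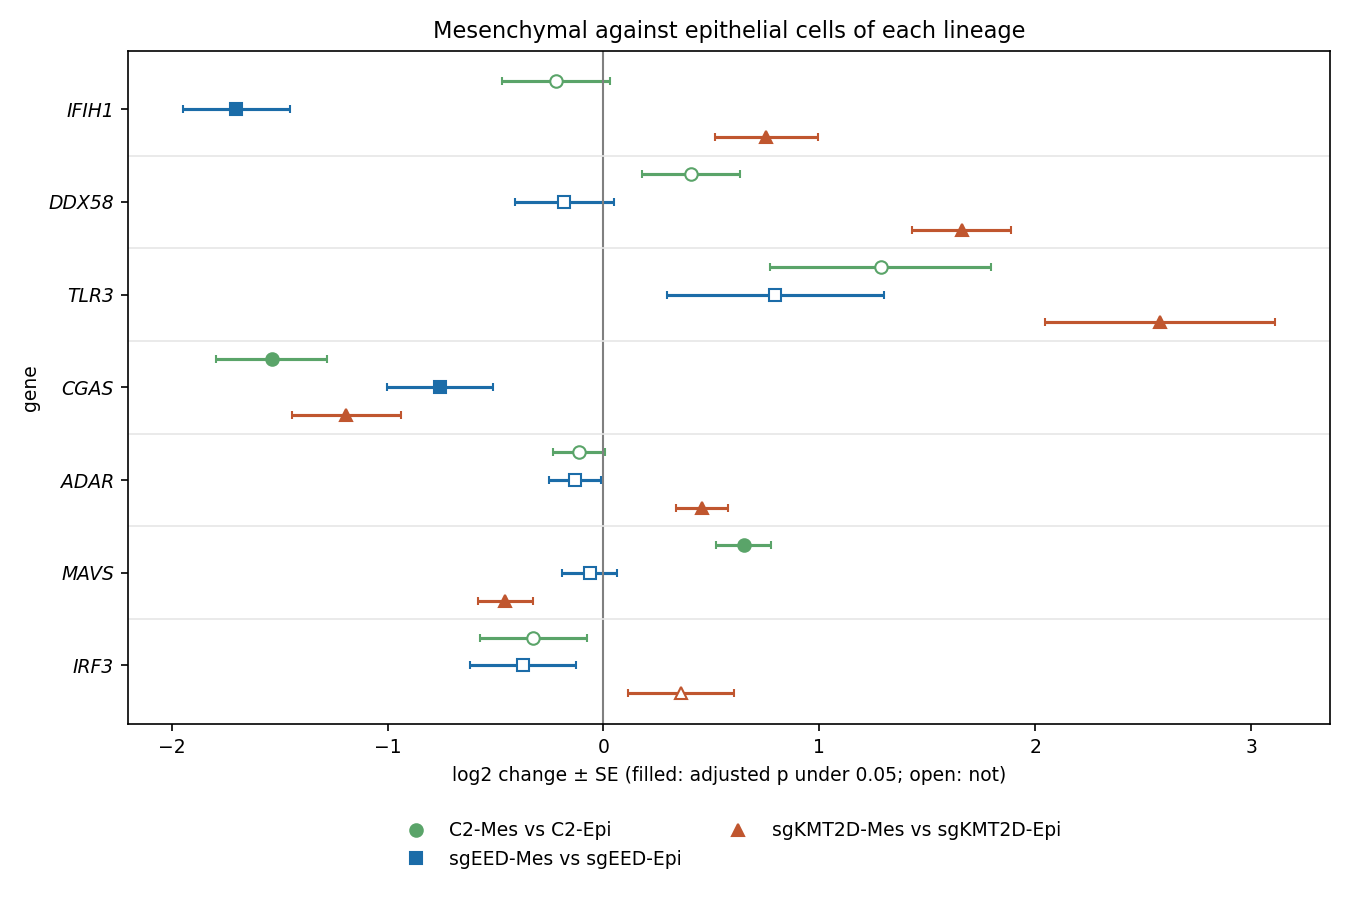
Log2 change of 7 members from the epithelial to the mesenchymal state in C2, sgEED and sgKMT2D cells, with bars of 1 SE and filled symbols for adjusted p under 0.05. The sgKMT2D symbols of IFIH1, DDX58, TLR3 and ADAR are filled above 0 and all 3 symbols of CGAS are filled below 0.

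Among epithelial states, the first comparison is the control guide. sgControl derives from C1, and the 3 RNA sensors and ADAR fell in it. IFIH1 read 17.9 and 17.3 CPM in C1 and 8.73 and 8.01 in sgControl, and fell by 1.07 on the log2 scale (SE 0.243, adjusted p = 0.0059). DDX58 read 14.0 and 11.6 against 5.96 and 3.81, and fell by 1.39 (SE 0.244, adjusted p = 0.0012). TLR3 read 7.43 and 6.26 against 1.80 and 0.685, and fell 5.46-fold (log2 change -2.45, SE 0.583, adjusted p = 0.0083). ADAR fell by 0.47 (adjusted p = 0.011), from 342 and 325 CPM to 242 and 239. No value of these 4 genes overlaps between the groups.

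In all, 4 of 7 members fell and none rose in sgControl, where 27.1% of all genes were called (13.8% lower), with a median log2 change of -0.47 beside 0.02 over all genes. CGAS (0.29, adjusted p = 0.43), MAVS (0.21, adjusted p = 0.25) and IRF3 (-0.03, adjusted p = 0.97) did not pass. The fall of IFIH1 was lost without sgControl replicate 2 (-1.04, adjusted p = 0.067). That of TLR3 was lost without C1 replicate 1 (-2.34, adjusted p = 0.052) or sgControl replicate 2 (-1.95, adjusted p = 0.10), and that of ADAR without C1 replicate 1 (-0.45, adjusted p = 0.058). The fall of DDX58 was kept under all alternatives.

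The plastic epithelial C2-Epi was also lower than C1 in IFIH1, at 7.44 and 8.19 CPM. IFIH1 fell 2.25-fold (log2 change -1.17, SE 0.243, adjusted p = 0.0028), a call lost without C2-Epi replicate 1 (-1.01, adjusted p = 0.055). MAVS fell by 0.50 (adjusted p = 0.0091), from 187 and 193 CPM to 128 and 140, and that call was lost with no filter (-0.42, adjusted p = 0.09), with the GC content and length correction (-0.27, adjusted p = 0.10) and without any 1 of the 4 libraries (adjusted p = 0.072 to 0.16). These 2 of 7 members stood against 30.7% of all genes called. CGAS was 11.4 and 9.49 CPM in C1 and 16.9 and 16.5 in C2-Epi, with a log2 change of 0.68 on the edge of the threshold (adjusted p = 0.053). It passed under 6 alternatives, among them DESeq2 (0.70, adjusted p = 0.033) and the fit without C2-Mes (0.77, adjusted p = 0.0028). TLR3 (-0.74, adjusted p = 0.30), ADAR (-0.21, adjusted p = 0.21), DDX58 (0.23, adjusted p = 0.48) and IRF3 (-0.22, adjusted p = 0.53) did not pass. In a fit of only these 4 libraries TLR3 (-0.70, adjusted p = 0.00074) and ADAR (-0.17, adjusted p = 0.041) passed, as did TLR3 with the GC content and length correction (-1.14, adjusted p = 0.042).

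Against sgControl, the EED knockout in the epithelial state had more of every RNA sensor. IFIH1 rose 2.49-fold (log2 change 1.32, SE 0.243, adjusted p = 0.00058), DDX58 rose 3.49-fold (1.80, SE 0.244, adjusted p = 5e-05) and TLR3 rose 4.01-fold (2.00, SE 0.585, adjusted p = 0.012). CGAS rose by 0.65 (adjusted p = 0.043) and ADAR by 0.44 (adjusted p = 0.0085). These are 5 of 7 members, where 48.8% of all genes were called (24.3% higher). The TLR3 call was lost with the GC content and length correction (1.08, adjusted p = 0.07), in a fit of only these libraries (2.05, adjusted p = 0.11) and without sgControl replicate 2 (1.53, adjusted p = 0.12) or sgEED-Epi replicate 1 (1.25, adjusted p = 0.16). The CGAS call was lost with that correction (0.28, adjusted p = 0.24) and without any 1 of the 4 libraries (adjusted p = 0.08 to 0.14).

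The calls of the RNA sensors depended on the control. Against C1, the cells from which the edited groups derive, sgEED-Epi differed in 1 of 7 members, where 25.2% of all genes were called. CGAS rose by 0.93 (adjusted p = 0.014). IFIH1 was 24.3 and 17.4 CPM against 17.9 and 17.3 in C1 (log2 change 0.24, adjusted p = 0.49). The log2 changes of DDX58 (0.41, adjusted p = 0.21), TLR3 (-0.45, adjusted p = 0.57) and ADAR (-0.03, adjusted p = 0.88) did not pass either. The levels of the RNA sensors IFIH1, DDX58 and TLR3 in sgEED-Epi were thus above those of sgControl and not distinguished from those of C1. CGAS was called higher in sgEED-Epi than in either control. These comparisons share sgEED-Epi or a control, so they are not independent of each other.

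The KMT2D knockout in the epithelial state differed from sgControl in 1 of 7 members, where 56.0% of all genes were called. DDX58, at 14.0 and 13.9 CPM, rose 2.85-fold (log2 change 1.51, SE 0.243, adjusted p = 0.00015). With the GC content and length correction that change was 0.76 (adjusted p = 0.0036), and those of IFIH1 (-0.15), TLR3 (-0.10) and IRF3 (0.27) had the opposite sign to the values given next. IFIH1 (0.29, adjusted p = 0.33), TLR3 (1.04, adjusted p = 0.16), CGAS (0.54, adjusted p = 0.079) and IRF3 (-0.59, adjusted p = 0.055) did not pass. With no filter on low counts TLR3 (1.13, adjusted p = 0.0011) and IRF3 (-0.52, adjusted p = 0.032) passed. In a fit of only these libraries they passed too (1.11, adjusted p = 0.013 and -0.53, adjusted p = 0.0046), and in the fit without C2-Mes IRF3 passed (-0.53, adjusted p = 0.0054), while CGAS passed in all 3 of those fits.

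Against C1 the calls in sgKMT2D-Epi were others, 3 of 7 with 38.8% of all genes called. IFIH1, at 10.2 and 10.3 CPM, fell by 0.78 (adjusted p = 0.020), ADAR fell by 0.37 (adjusted p = 0.028) and CGAS rose by 0.82 (adjusted p = 0.018). DDX58 was not distinguished from C1 (0.12, adjusted p = 0.71). The change of TLR3 was -1.41 and did not pass (adjusted p = 0.052), where it was 1.04 against sgControl. CGAS was therefore called higher than C1 in both knockouts in the epithelial state, while its value in C2-Epi lay above C1 without passing. The calls of the knockouts against C1 come from 1 fit and were not put through the other alternatives.

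**Figure D4:**
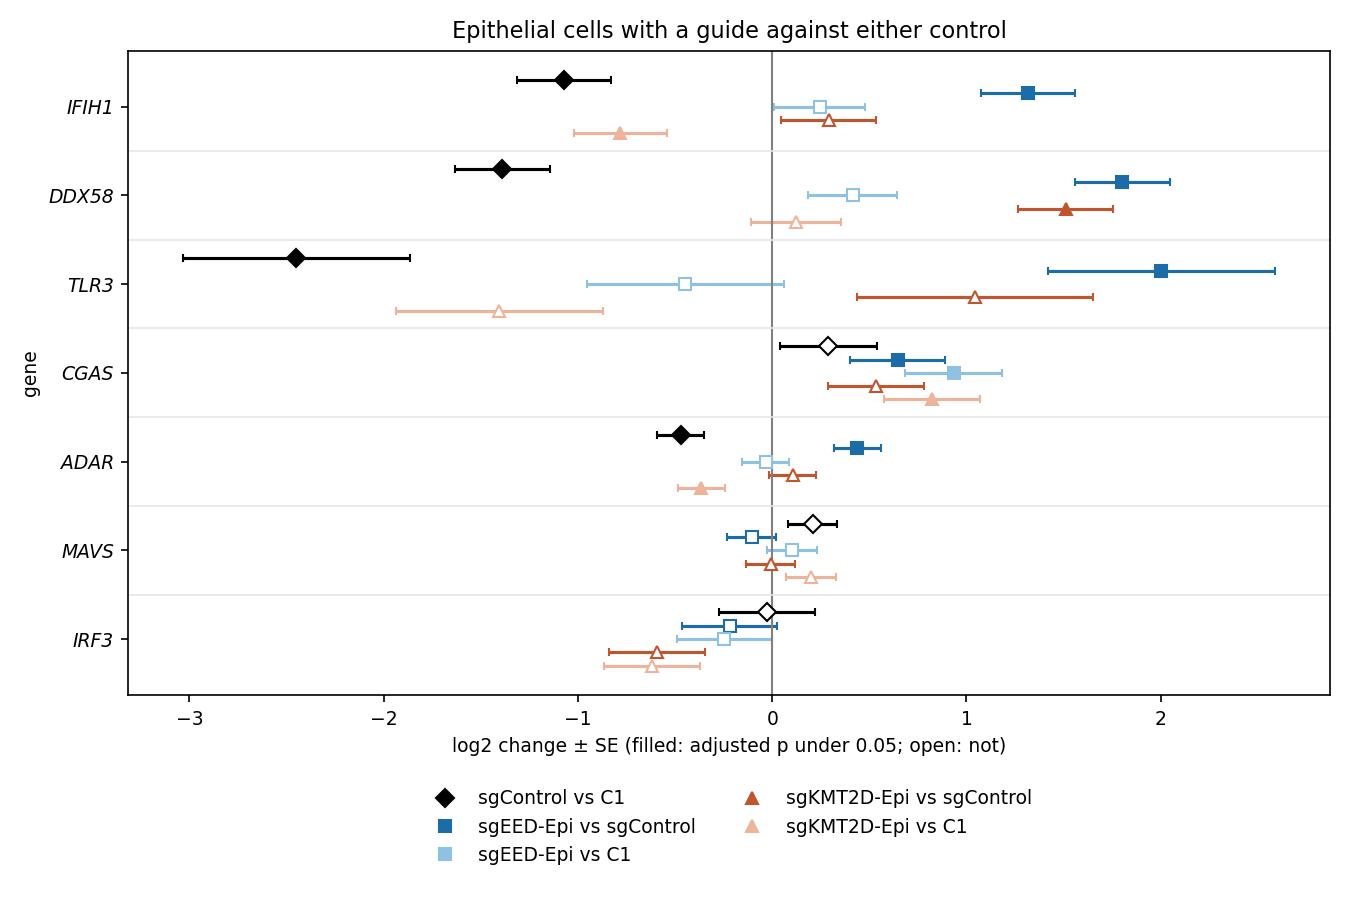
Log2 change of 7 members in epithelial comparisons, with sgControl set against C1 and sgEED-Epi and sgKMT2D-Epi each set against sgControl and against C1. Bars are 1 SE and filled symbols have adjusted p under 0.05. In sgEED-Epi the symbols of IFIH1, DDX58, TLR3 and ADAR are filled above 0 against sgControl and open against C1. The CGAS symbol is filled above 0 against both.

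The mesenchymal states were then set against each other. sgKMT2D-Mes stood apart in the cytosolic RNA sensors. IFIH1, at 17.0 and 17.5 CPM, was above the 5.59 and 7.26 of sgEED-Mes by 1.43 on the log2 scale (SE 0.246, adjusted p = 0.00056) and above the 8.82 and 4.82 of C2-Mes by 1.36 (SE 0.248, adjusted p = 0.00073). DDX58, at 43.5 and 44.5 CPM, was above the 15.3 and 14.7 of sgEED-Mes by 1.55 (SE 0.23, adjusted p = 0.00017) and above C2-Mes by 1.14 (SE 0.227, adjusted p = 0.0015). These 2 of 7 members were called against sgEED-Mes, where 31.1% of all genes were, and both were kept under every alternative. The IFIH1 difference from C2-Mes was lost in a fit of only those 4 libraries (1.33, adjusted p = 0.075).

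Against C2-Mes 4 of 7 members were called, where 33.4% of all genes were. ADAR was higher by 0.41 (adjusted p = 0.018) and MAVS was lower by 0.40 (log2 difference -0.40, adjusted p = 0.026). Both were lost with no filter (adjusted p = 0.093 and 0.096), in a fit of only these libraries (0.19 and 0.18) and without sgKMT2D-Mes replicate 1 (0.12 and 0.13). MAVS was also lost without C2-Mes replicate 1 (-0.29, adjusted p = 0.097) or sgKMT2D-Mes replicate 2 (0.072). TLR3 overlapped between the groups, since C2-Mes replicate 1 read 15.7 CPM and replicate 2 4.73, and its difference of 0.63 did not pass (adjusted p = 0.36). Without C2-Mes replicate 1 the differences of TLR3 and CGAS were 1.72 and 0.98, and without replicate 2 that of IRF3 was 0.81. Over the alternatives these ran from -0.078 to 1.72, from 0.032 to 0.98 and from -0.11 to 0.81.

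sgEED-Mes differed from C2-Mes in CGAS alone among the 7, where 41.9% of all genes were called. CGAS was 9.40 and 14.2 CPM in sgEED-Mes and 7.60 and 4.12 in C2-Mes, a log2 difference of 1.04 (SE 0.259, adjusted p = 0.0053). DDX58 was called lower with the GC content and length correction (-0.46, adjusted p = 0.038). The difference of IRF3 was -0.47 without C2-Mes replicate 1 and ran from -0.47 to 0.46 over the alternatives. The CGAS call was lost in a fit of only these libraries (1.02, adjusted p = 0.12) and without C2-Mes replicate 2 (0.57, adjusted p = 0.054) or sgEED-Mes replicate 2 (0.69, adjusted p = 0.092). The mesenchymal comparisons share libraries with each other, and 2 of the 3 rest on C2-Mes, whose replicates differ most.

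Ordered over all 8 groups, the members fell into different sequences. IFIH1 was highest in sgEED-Epi (20.9 ± 4.87 CPM, SD, n = 2), C1 (17.6 ± 0.365) and sgKMT2D-Mes (17.3 ± 0.371), neighbours whose libraries overlap. It then stepped down to sgKMT2D-Epi (10.2 ± 0.0492) and again to sgControl, C2-Epi, C2-Mes and sgEED-Mes (6.43 ± 1.19), which overlap from one to the next. High IFIH1 therefore occurred in a stable epithelial, a plastic epithelial and a mesenchymal group. DDX58 had 1 high group, sgKMT2D-Mes (44.01 ± 0.651), then 6 groups from C2-Mes (19.9 ± 1.89) to C1 (12.8 ± 1.74) in which neighbours overlap, and 1 low group, sgControl (4.89 ± 1.52). TLR3 ran from sgKMT2D-Mes (15.4 ± 0.232) and C2-Mes (10.2 ± 7.73) to sgKMT2D-Epi (2.58 ± 0.318) and sgControl (1.24 ± 0.791), with gaps only before the last 2.

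CGAS was highest in the 3 plastic epithelial groups, sgEED-Epi (19.9 ± 1.95), sgKMT2D-Epi (18.5 ± 2.38) and C2-Epi (16.7 ± 0.271), where neighbours overlap. A gap followed before sgControl (12.7 ± 0.324), sgEED-Mes (11.8 ± 3.41) and C1 (10.4 ± 1.33), and others before sgKMT2D-Mes (8.09 ± 0.0165) and C2-Mes (5.86 ± 2.46). All 6 plastic epithelial libraries lay above all other libraries for CGAS. IRF3 was highest in C1 (55.3 ± 0.371) and sgControl (54.3 ± 3.61), and the other 6 groups, down to sgKMT2D-Epi (36.0 ± 2.07), overlap from neighbour to neighbour. MAVS ran from sgControl (220 ± 9.7) to C2-Epi (134 ± 8.08), and ADAR from sgKMT2D-Mes (355 ± 16.3) to sgControl (240 ± 1.68).

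The end product was at the limit of detection. IFNB1 had 2 counts in C2-Mes replicate 2, 1 count in sgKMT2D-Mes replicate 1 and 0 in the other 14 libraries. ZBP1 had 1 count in each of C1 replicate 2, C2-Mes replicate 2 and sgEED-Mes replicate 2, and 0 in the other 13. A count of 0 allows up to 3 counts in a library, which is 0.0958 to 0.175 CPM over these libraries, for counting error only. No difference of IFNB1 or ZBP1 between groups was detectable at this depth, and no fold is given. RIPK3, the kinase that ZBP1 engages to kill cells, also had 0 counts in all 16 libraries.

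The other interferon genes were as scarce, with 1 exception. Of 20 listed interferon genes besides IFNB1, 15 had 0 counts in every library. IFNW1 and IFNL3 had 1 count each in all, IFNG 2 and IFNK 12. Many interferon alpha and lambda genes are near-identical copies, so reads that map to several could have been left out, and these zeros are uncertain. The exception was IFNE, an interferon made constitutively by reproductive epithelia, at chr9:21480839-21482313 on the minus strand.

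IFNE had 44 and 43 raw counts in C2-Epi and 133 and 184 in C2-Mes, and rose 4.18-fold (log2 change 2.06, adjusted p = 0.0085). The call was lost without C2-Epi replicate 1 (1.95, adjusted p = 0.076), C2-Epi replicate 2 (2.02, adjusted p = 0.067) or C2-Mes replicate 1 (1.75, adjusted p = 0.056). In sgEED it had 41 and 10 counts against 126 and 25, which overlap. That change of 1.61 passed at the edge (adjusted p = 0.0496), and fell away without sgEED-Mes replicate 1 (0.17, adjusted p = 0.88), without sgEED-Epi replicate 2 (0.82, adjusted p = 0.35), in a fit of only these libraries (1.50, adjusted p = 0.23) and in the fit without C2-Mes (1.59, adjusted p = 0.074). In sgKMT2D it had 104 and 97 against 200 and 199 (log2 change 1.18, adjusted p = 0.069). IFNE lies wholly inside MIR31HG, a long RNA gene on the same strand that was at 8.06 ± 0.806 CPM in C2-Epi and 15.3 ± 6.39 in C2-Mes, so its counts may include reads of that RNA, which was not tested.

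Genes around the members were counted in lists written from textbook roles. A list's median is given beside 0.01 (C2), 0.01 (sgEED) and 0.02 (sgKMT2D) over all genes, and the background shares of called genes are those given for the 3 pairs above. Genes next to the RNA sensors changed in both directions, and interferon-stimulated genes were mostly higher in the mesenchymal states, as the counts below give.

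The closest partners of IFIH1 and DDX58, 15 genes of the RIG-I-like receptor arm, changed in both directions. In sgKMT2D 6 rose and 4 fell (median -0.01), in C2 2 rose and 1 fell (0.14), and in sgEED none rose and 2 fell (0.07). Of these genes DHX58 (the protein LGP2), a helicase without signalling domains that modulates IFIH1, rose in sgKMT2D from 0.635 ± 0.0537 to 9.09 ± 0.139 CPM (log2 change 3.83, adjusted p = 6.2e-08). DDX60, a helicase linked to RIG-I signalling, rose from 4.93 ± 0.300 to 32.2 ± 3.12 CPM (2.71, adjusted p = 0.00019). RNF135 (1.41, adjusted p = 3.7e-05), a ubiquitin ligase for DDX58, and NLRX1 (1.40, adjusted p = 0.0012), an inhibitor of MAVS, rose there as well. In sgEED the ubiquitin ligase TRIM25 fell from 144 ± 11.4 to 61.8 ± 1.04 CPM (-1.22, adjusted p = 0.0004) and TRAF3 fell by 0.53 (adjusted p = 0.0093). The kinase TBK1, which phosphorylates IRF3, did not pass in sgKMT2D (-0.55, adjusted p = 0.07). The C2 count of 2 higher became 4 with the GC content and length correction, 0 in a fit of only those libraries and 1 without either C2-Epi library, with 0 to 3 lower, and the sgKMT2D count of 4 lower became 7 in that kind of fit and without C2-Mes.

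Other double-stranded RNA sensors and effectors split in the same way, with 11 genes tested. In sgKMT2D 5 rose and 4 fell (median 0.29), in sgEED 4 rose and 3 fell (0.14), and in C2 1 rose and 4 fell (-0.22). The OAS enzymes, which make a second messenger of short oligoadenylates when they bind double-stranded RNA, include several that rose in sgKMT2D. OAS2 rose there from 0.221 ± 0.0878 to 33.5 ± 4.13 CPM (7.19, adjusted p = 8.8e-09), OAS1 by 4.65 (adjusted p = 1e-08) and OASL, a relative without that activity, by 4.75 (adjusted p = 2.8e-08). OAS2 rose also in C2 (3.23, adjusted p = 6.9e-06) and sgEED (2.21, adjusted p = 0.0015), while OAS3 fell in C2, from 113 ± 4.24 to 40.5 ± 6.81 CPM (-1.48, adjusted p = 1.1e-06). ADARB1, the second editing enzyme, fell in C2 from 45.7 ± 0.733 to 6.58 ± 4.25 CPM (-2.84, adjusted p = 5.2e-06). EIF2AK2 (PKR) did not pass in sgKMT2D (-0.31). The C2 count of 4 lower became 2 in a fit of only those libraries or without C2-Epi replicate 1, and 7 without C2-Mes replicate 1.

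Of the Toll-like receptor arm 6 of 9 genes were tested, and TLR7, TLR8 and TLR9, the other endosomal nucleic acid receptors, had 10, 1 and 1 counts in all libraries together. In sgKMT2D 3 rose and none fell (median 0.93), in sgEED 2 rose and 1 fell (-0.05), and in C2 1 rose (0.22). TRAF1, an adaptor induced by NF-kB, rose in C2 from 1.34 ± 0.0587 to 24.8 ± 1.95 CPM (4.20, adjusted p = 1.6e-08), in sgKMT2D by 3.46 (adjusted p = 2.1e-07) and in sgEED by 1.59 (adjusted p = 0.00086). TICAM1, the adaptor that TLR3 needs, fell in sgEED by 0.87 (adjusted p = 0.00073) and did not pass in sgKMT2D (-0.27), where its receptor rose. The sgEED count of 2 higher became 1 without sgEED-Epi replicate 1 or sgEED-Mes replicate 1, and the C2 count of 1 became 2 without C2-Mes replicate 1.

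In the cytosolic DNA arm, the partners of CGAS were called about as often as all genes in sgEED and sgKMT2D (36.5% and 50.8%). Of 10 genes tested, 5 rose in C2 (median 0.28, with 1 lower), 4 in sgEED (0.61, none lower) and 5 in sgKMT2D (0.68, none lower). ENPP1, the enzyme that degrades the cGAMP made by CGAS, rose in all 3: from 5.60 ± 0.361 to 72.0 ± 28.2 CPM in C2 (3.69, adjusted p = 1.6e-08), from 10.3 ± 0.182 to 228 ± 11.9 in sgEED (4.47, adjusted p = 4.3e-09) and from 3.04 ± 0.0679 to 183 ± 4.73 in sgKMT2D (5.91, adjusted p = 6.1e-10). STING1, the receptor of cGAMP, rose in sgKMT2D from 6.73 ± 0.90 to 51.1 ± 2.90 CPM (2.93, adjusted p = 8.6e-07), beside 33.1 ± 1.35 in C1 and 36.8 ± 4.04 in sgControl. TREX1, the exonuclease that removes cytosolic DNA, rose in sgKMT2D (1.68, adjusted p = 0.00068). DNASE2, the lysosomal nuclease, rose in sgKMT2D (1.61, adjusted p = 8e-06) and sgEED (0.91, adjusted p = 0.0014). The C2 count of 5 higher became 1 in a fit of only those libraries, 3 without C2-Epi replicate 1 or C2-Mes replicate 2 and 2 without C2-Epi replicate 2, and the count of 1 lower ran from 0 in that fit to 5 without C2-Mes replicate 2.

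In the cell death arm of ZBP1, 4 of 5 genes were tested (RIPK1, MLKL, CASP8 and FADD). C2 had 1 higher and 1 lower (median 0.08), sgEED 1 and 2 (-0.28), and sgKMT2D 1 and 1 (-0.09). The 1 lower in C2 became 0 without C2-Mes replicate 1 or either C2-Epi library and 2 without C2-Mes replicate 2. RIPK1 rose in all 3, by 1.04 in C2 (adjusted p = 0.00014), 0.78 in sgEED and 1.47 in sgKMT2D (adjusted p = 4.7e-06). MLKL, the protein that perforates membranes in necroptosis, fell in sgKMT2D (-0.76, adjusted p = 0.0031) and sgEED (-0.84).

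Among the other interferon regulatory factors, 6 of 8 were tested. IRF5 fell in C2 (-3.88, adjusted p = 5.1e-08) and sgEED (-1.86, adjusted p = 3.7e-05). IRF7, the factor that amplifies the interferon response, rose in sgKMT2D from 3.78 ± 0.285 to 13.1 ± 0.217 CPM (1.79, adjusted p = 0.00011), as did IRF9, the DNA-binding part of ISGF3 (1.91, adjusted p = 0.00028). IRF1 rose in C2 (1.35, adjusted p = 0.00015). By count 1 rose and 2 fell in C2 (median -0.12), none and 2 in sgEED (0.15), and 4 and 2 in sgKMT2D (0.62), where 2 were higher without either sgKMT2D-Epi library or sgKMT2D-Mes replicate 2, and 1 was lower without replicate 2 of either group.

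Receptors and signalling genes of the interferon response, 14 in all, rose more often than they fell in each pair. The counts were 7 higher and 1 lower in C2 (median 0.50), 7 and 1 in sgEED (0.51) and 10 and 1 in sgKMT2D (0.92). STAT2, a subunit of ISGF3, rose in sgKMT2D from 34.99 ± 2.57 to 170 ± 2.34 CPM (2.28, adjusted p = 1.2e-08). JAK2 rose in C2 (1.98, adjusted p = 3.6e-05) and sgEED (1.61, adjusted p = 0.00025), and SOCS3, an inhibitor of JAK signalling, in C2 (1.91, adjusted p = 1.3e-05) and sgEED (2.53, adjusted p = 1.1e-06). The gene that fell in each was IFNLR1, the receptor chain for interferon lambda, by 3.52 in C2 (adjusted p = 6.6e-08), 1.50 in sgEED (adjusted p = 8.2e-05) and 2.29 in sgKMT2D (adjusted p = 2.5e-06). The C2 count of 7 higher became 3 in a fit of only those libraries and 4 without C2-Epi replicate 2.

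Most interferon-stimulated genes rose in the mesenchymal state of all 3 lines, in libraries with 0 to 2 counts of IFNB1. Of 24 tested, 14 rose and 2 fell in C2 (median log2 change 1.43), 17 rose and none fell in sgEED (1.40), and 22 rose and none fell in sgKMT2D (4.15). Since 4 of them were at 0 in both libraries of a C2 group, the C2 median was also taken with those genes at the bound set by 3 counts per library, and was 0.95. The antiviral gene IFIT1 rose in sgKMT2D from 1.01 ± 0.0226 to 42.1 ± 2.19 CPM (5.37, adjusted p = 2.1e-10) and in sgEED from 1.86 ± 0.0992 to 8.41 ± 0.625 (2.17, adjusted p = 5e-07). IFI44L rose from 2.68 ± 0.415 to 237 ± 12.6 CPM in sgKMT2D, by 6.23 in C2 (adjusted p = 1.6e-09) and by 4.31 in sgEED (adjusted p = 3.9e-08). Single genes went the other way, and HERC5, a ligase for ISG15, fell in C2 (-3.03, adjusted p = 7.6e-06). Over all alternatives the number that rose was 10 to 16 in C2, 12 to 17 in sgEED and 22 to 24 in sgKMT2D.

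The difference between lines was tested for these genes too. The sgKMT2D change exceeded the sgEED change in 18 of 24 (median difference 2.16), where 20.1% of all genes were called in either direction, and the C2 change in 17 of 24 (2.23), where 24.1% were. It fell short of either in none. The early targets of IRF3 that could be tested, IFIT1, IFIT2, IFIT3, ISG15 and OASL, are mostly also in the list above. All 5 rose in sgKMT2D (median 4.41) and in sgEED (1.69), and 3 rose in C2 (1.04). CXCL10, CCL5 and CXCL11, the chemokines among them, had 26, 31 and 20 counts over all 16 libraries and were not tested.

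**Figure D5:**
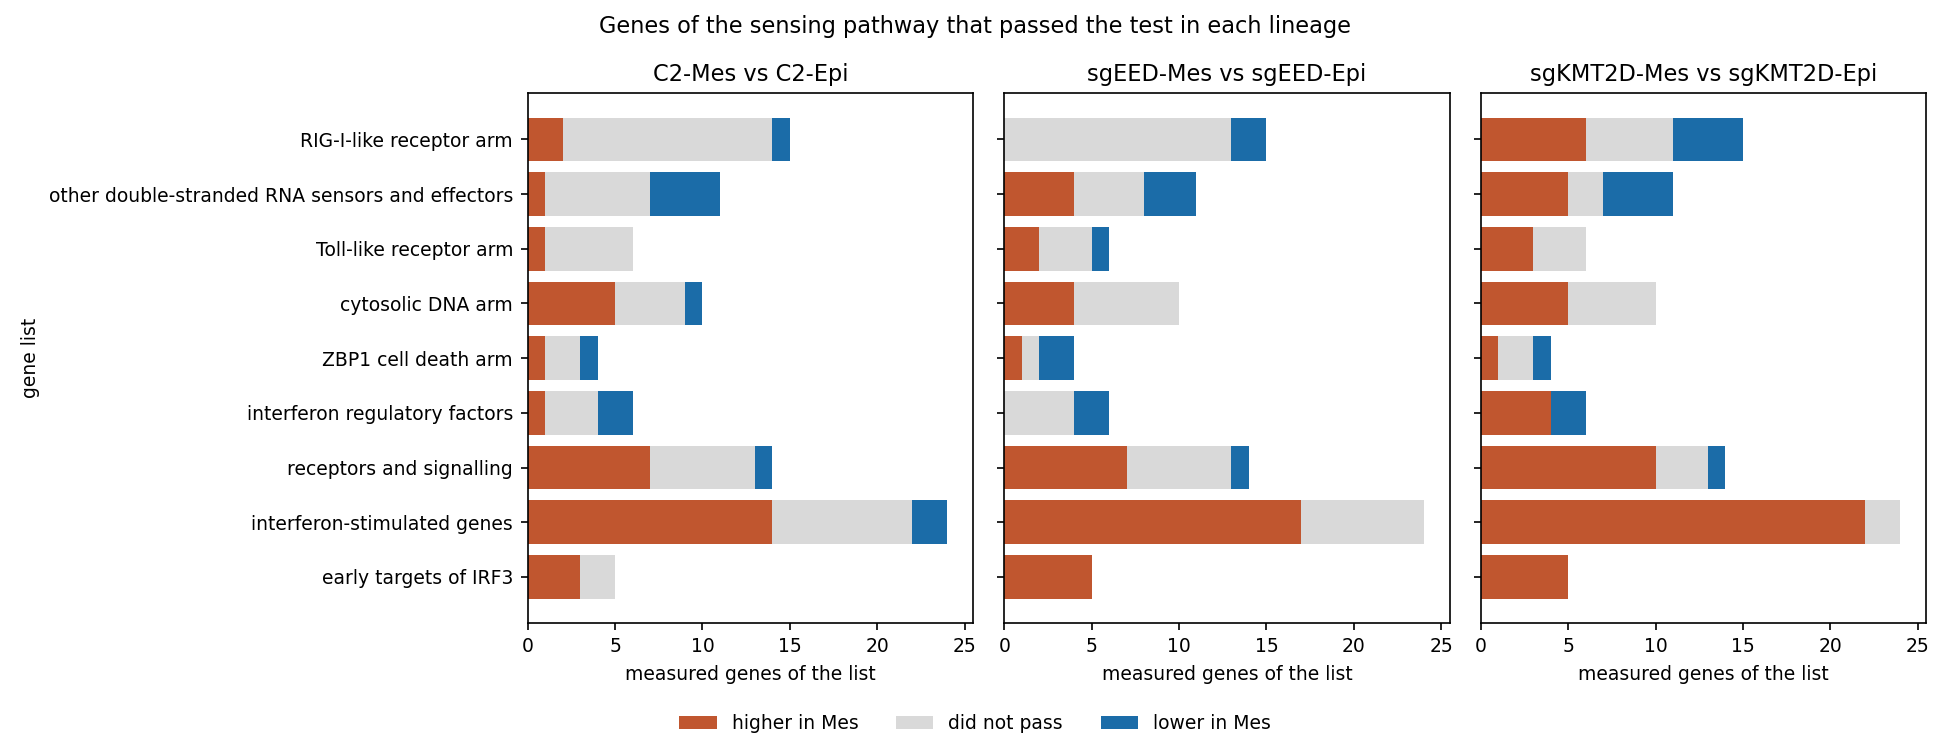
Number of tested genes that were higher, lower or did not pass (adjusted p under 0.05) in the mesenchymal against the epithelial state, for 9 lists around the sensors, in C2, sgEED and sgKMT2D. The bars of interferon-stimulated genes are mostly higher, with 14, 17 and 22 of 24, while the RIG-I-like arm is mixed.

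The same 24 genes were counted in the other comparisons. In sgControl against C1 10 fell and none rose (median -0.45, 9 to 11 lower over the alternatives), where 27.1% of all genes were called. In C2-Epi against C1, where 30.7% of all genes were called, 9 were lower and 1 higher (median -0.59, or -0.50 with genes at 0 at their bound), and the 9 became 0 without C1 replicate 1 or C2-Epi replicate 2 and 2 without C1 replicate 2 or C2-Epi replicate 1. In sgEED-Epi 11 were higher and 3 lower than in sgControl (median 0.70), where 48.8% of all genes were called, and 2 were higher with C1 as the control. In sgKMT2D-Epi 8 were higher and 8 lower than in sgControl (0.21, or 0.04 at the bound), with 5 lower without sgKMT2D-Epi replicate 2, and 1 was higher and 13 lower with C1 as the control. Those 16 of 24 stand beside 56.0% of all genes called. Among mesenchymal states 23 of 24 were higher in sgKMT2D-Mes than in C2-Mes (median 2.33, where 33.4% of all genes were called) and 19, with 1 lower, than in sgEED-Mes (1.96, where 31.1% were).

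How the members vary together over the 8 group means is a description, since most groups are C1 or derive from it and n is 8. DDX58 and TLR3 ran most closely together (r = 0.88), followed by ADAR with TLR3 (0.76), ADAR with IFIH1 (0.71) and ADAR with DDX58 (0.70). The 2 cytosolic RNA helicases, in contrast, ran apart (r = 0.32), and CGAS ran against TLR3 (-0.57). So the RNA sensors did not move as 1 block over these states.

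Among 14600 genes, those most like each member over the same 8 means were also noted. The first after DDX58 was DDX60L (r = 0.976), a known interferon-induced gene. TLR3 was followed by ERAP2 (0.971), a peptidase of antigen presentation, and FUT8 (0.960), IFIH1 by LIPH (0.960), GET3 (0.925) and the inflammatory protease CASP1 (0.924), and ADAR by PGP (0.913) and the ISG15 protease USP18 (0.890). CGAS was followed by MED6 (0.984) and MFHAS1 (0.970), MAVS by the mitochondrial ribosomal RNA MT-RNR1 (0.975) and RUNDC1 (0.936), and IRF3 by CROCC (0.977) and TRAFD1 (0.975). With 8 points and 14600 genes searched, high values arise readily.

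Base composition differed among the members, which bears on the corrected fits. Exon GC content was 37.6% in TLR3, 40.5% in DDX58, 42.0% in IFNB1, 43.3% in IFIH1 and 43.6% in CGAS, below the median of 48.1% over tested genes, and 49.3% in ADAR, 52.1% in MAVS, 57.1% in ZBP1 and 59.0% in IRF3. The sensors that varied most were thus among the genes poor in GC, and the part of GC content in their differences was not tested beyond the correction. With that correction the changes of IFIH1, DDX58, TLR3 and CGAS in sgKMT2D, of CGAS in C2 and of IFIH1 in sgEED remained called. Against sgControl it made the epithelial changes of IFIH1, DDX58, TLR3 and CGAS smaller in size. In sgKMT2D-Epi the uncalled changes of ADAR (0.11 to 0.22) and MAVS (-0.008 to 0.28) became larger. In sgEED-Epi the uncalled change of IRF3 turned sign (-0.22 to 0.27). In sgEED-Epi DDX58 moved from 1.80 to 1.19 and IFIH1 from 1.32 to 0.89, both still called, while TLR3 moved from 2.00 to 1.08 and CGAS from 0.65 to 0.28, and both calls were lost. In sgKMT2D-Epi DDX58 moved from 1.51 to 0.76, still called, and the uncalled changes of TLR3 (1.04 to -0.10), IFIH1 (0.29 to -0.15) and IRF3 (-0.59 to 0.27) turned sign. The fall of TLR3 in sgControl against C1 moved from -2.45 to -1.83 and stayed called.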

How the data were processed

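Gene counts of 16 RNA-seq libraries (8 groups of 2) were analysed. The deposited values are whole-number counts per Ensembl gene, and per the submitters' processing notes reads were aligned to GRCh38 with STAR 2.7.1a and counted with featureCounts. Which annotation release was counted, whether strand was used and how multiply mapped reads were treated are not given in the sources used here. Symbols and positions were taken from GENCODE 29, which holds 56868 of 60448 genes (94.1%). Counts of the remaining genes made up no more than 0.0463% of any library.

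The counts were tested with edgeR 4.0.16 (limma 3.58.1, R 4.3.3): filterByExpr (18285 genes), TMM scaling, a model of the 8 group means fitted to all libraries (residual degrees of freedom, 8), robust quasi-likelihood tests, and Benjamini-Hochberg adjustment within each comparison. A gene was called at an adjusted p under 0.05. The SE of a log2 change is its size divided by the square root of the F statistic. Levels (CPM) are counts divided by TMM-scaled library totals. Figures were drawn with Python 3.11.15 and matplotlib 3.10.9.

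Alternatives were size factors of DESeq2 (RLE), no filter, a DESeq2 1.42.0 Wald test, only the libraries compared, a replicate block, C1 as the control, each library left out in turn, plain library totals for levels, and a correction of GC content and exon length (a spline with 4 degrees of freedom over the 12660 genes whose mean count was 50 or more, with GC known for 99.3% of tested genes). A fit without C2-Mes, and the list counts and named pathway genes without single libraries and with that correction, were added after seeing the data.

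The members and gene lists were chosen with earlier results of these data known. Named genes are the 9 members, up to 4 called genes of each list and comparison with at least 1 CPM and the largest changes, and the 3 genes most correlated with each member over group means (log2 CPM, prior count 2). Not every gene so taken is printed. TBK1, EIF2AK2, TICAM1 in sgKMT2D, BCL2L12, DDX43 and MIR31HG were named after their values were seen. The test of sgKMT2D-Mes against sgKMT2D-Epi was also run on simulated counts with known changes. It recovered 10.1% of genes changed 1.5-fold, 83.8% changed 2-fold and 96.8% changed 4-fold. The simulation gave every gene the same dispersion and changed few genes, unlike these data, so it sets no limit for noisier genes. In C2 TLR3 changed 2.44-fold and did not pass (edgeR, adjusted p = 0.062). Changes that did not pass, also those above 1.5-fold, may therefore have been missed.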

Additional observations from a re-analysis of the deposited data

Results flagged for a closer look

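The change from the epithelial to the mesenchymal state was compared between lines by a test of the difference itself (edgeR, adjusted over 18285 genes). It differed in 8 cases among the members. These were 2 of 7 for C2 and sgEED, where 21.1% of all genes were called. For sgKMT2D and sgEED they were 3 of 7 (20.1% of all genes), and for sgKMT2D and C2 3 of 7 (24.1%). Each value below is a difference of 2 log2 changes. For IFIH1 the change in C2 exceeded that in sgEED by 1.481 (adjusted p = 0.0073), and the change in sgKMT2D exceeded that in sgEED by 2.455 (adjusted p = 0.0002). IFIH1 fell in sgEED and rose in sgKMT2D. For DDX58 the change in sgKMT2D exceeded that in sgEED by 1.84 (adjusted p = 0.0012) and that in C2 by 1.253 (adjusted p = 0.011). DDX58 was called in sgKMT2D only, and these tests are of the difference between lines. For ADAR the change in sgKMT2D exceeded that in sgEED by 0.5867 (adjusted p = 0.026) and that in C2 by 0.5701 (adjusted p = 0.026). For MAVS the change in C2 exceeded that in sgEED by 0.7137 (adjusted p = 0.011), and the change in sgKMT2D minus that in C2 was -1.104 (adjusted p = 0.00053). Groups of 2 libraries are too small to test for a library that stands apart by the gap between its values. Pairs of these differences share a line, so they are not independent.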

How the results depend on the processing

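Of 91 pairs of a member and a comparison 37 were called, 13 of them under every alternative, and 24 were lost under at least 1. Over all genes the share called ran from 20.1% to 56.0% among the same comparisons. A further 49 sign changes, counted over pairs and alternatives, concerned pairs called neither in the reported fit nor in the alternative. With plain library totals 26 of 72 group levels moved by more than 1 SD, by factors of 0.887 to 1.09. Depth limits IFNB1 and ZBP1, and the C2-Mes replicates limit every result that uses that group.

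With C1 as the control the log2 changes of TLR3 (-0.45) and ADAR (-0.034) in sgEED-Epi and of IFIH1 (-0.78) and ADAR (-0.37) in sgKMT2D-Epi turned sign against those relative to sgControl. So did changes called against neither control, those of TLR3 in sgKMT2D-Epi (-1.41) and of MAVS in sgEED-Epi (0.10) and sgKMT2D-Epi (0.20). The members called then numbered 1 in place of 5 in sgEED-Epi and 3 in place of 1 in sgKMT2D-Epi, and all genes called in sgEED-Epi numbered 4601 in place of 8930.

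Members called of 7 moved as follows, with the reported count first. C2-Mes against C2-Epi gave 2, then 4 with the GC content and length correction and 1 in a fit of only the libraries compared. C2-Epi against C1 gave 2, then 5 in that fit. The count for sgEED-Epi against sgControl was 5, then 3 with the correction. sgKMT2D-Epi against sgControl gave 1, then 4 with no filter, 4 in a fit of only the libraries compared and 3 without C2-Mes. For sgEED-Mes against C2-Mes it was 1, then 2 with the correction and 0 in a fit of only the libraries compared (edgeR). sgKMT2D-Mes against C2-Mes gave 4, then 2 with no filter and 1 in a fit of only the libraries compared, and against sgEED-Mes 2, then 4 with the correction and 5 without C2-Mes. The interaction of C2 and sgEED gave 2, then 1 with no filter and 0 in a fit of only the libraries compared (edgeR). That of sgKMT2D and sgEED gave 3, then 5 with the correction, 5 in a fit of only the libraries compared and 6 without C2-Mes. That of sgKMT2D and C2 gave 3, then 5 with the correction. The cause of these moves was not tested, and fits of only the libraries compared have fewer libraries to estimate the spread.

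With 1 library left out, members called ran from 2 to 4 in C2, 1 to 2 in sgEED, 4 to 5 in sgKMT2D, 0 to 1 in C2-Epi, 2 to 4 in sgControl, 3 to 4 in sgEED-Epi, 1 to 1 in sgKMT2D-Epi, 0 to 2 in sgEED-Mes against C2-Mes, 2 to 5 in sgKMT2D-Mes against C2-Mes and 2 to 2 against sgEED-Mes. For the interactions they ran from 1 to 3 (C2 and sgEED), 2 to 3 (sgKMT2D and sgEED) and 1 to 6 (sgKMT2D and C2).

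All genes called moved by over 1.5 times in fits of only the libraries compared, to 3361 from 7246 in C2, 9967 from 5620 in C2-Epi against C1, 3567 from 7664 in sgEED-Mes against C2-Mes, 2112 from 6103 in sgKMT2D-Mes against C2-Mes and 2130 from 3866 in the interaction of C2 and sgEED. With 1 library left out the count was 2629 to 3466 in C2-Epi against C1, 2226 to 2496 in sgControl against C1 without either C1 library or sgControl replicate 2 (from 4951), 4042 in sgKMT2D-Mes against C2-Mes without sgKMT2D-Mes replicate 1, and 3569 and 3556 in sgKMT2D-Mes against sgEED-Mes without sgKMT2D-Mes replicate 1 and 2 (from 5686). In the interaction of sgKMT2D and sgEED it was 2293 without sgKMT2D-Epi replicate 1 and 2425 without sgKMT2D-Mes replicate 1 (from 3674), and in that of sgKMT2D and C2 6749 without C2-Mes replicate 2 (from 4410).

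No pairing by replicate number was assumed. Over 28 pairs of groups the deviations of same-numbered libraries correlated at -0.371 to 0.344, with 4 above 0.1. These include sgControl with sgEED-Epi (0.250), which are compared here, and C2-Mes with each of them (0.344 and 0.219). Neither the labels nor all pairs of groups support a pairing, and the numbers were not used as one. Whether those 3 groups share variation by number was not tested further. With the replicate block the members called were 3 in C2 (TLR3 added) and 4 in the interaction of sgKMT2D and sgEED (TLR3 added), and the counts of the other comparisons did not move.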
